A study of Homo sapiens with 24 samples.

Results

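The aryl hydrocarbon receptor (AHR) pathway was followed through 8 genes in HT29 cells, an established human colon adenocarcinoma line, treated with a bacterial culture supernatant or with its 2 main acids. The genes were CYP1A1, CYP1A2, CYP1B1, AHRR, TIPARP, AHR, ARNT and ALDH3A1, and they were taken by name, as every non-control probe of the array that carries one of these symbols. This gave 12 probes of 50599 on the array, for 8 of 36337 names, and 11 of the 12 probes and all 8 genes passed the filter on dim signals that left 20703 genes. The groups were untreated cells (NT), cells given C3/C2 (propionate at 30 mM and acetate at 15 mM), cells given SN (the supernatant of a Propionibacterium freudenreichii culture in DMEM, diluted 1/2), cells given TRAIL (a death ligand, at 100 ng/ml, with 2 µg/ml of the anti-Flag M2 antibody), and the co-treatments TRAIL+C3/C2 and TRAIL+SN. Treatments lasted 6 h, all cells grew in DMEM with fetal calf serum, and each of the 6 groups had 4 arrays, 24 in all. The acids were dosed at the amounts that the diluted supernatant contains, so SN set against C3/C2 asks what the supernatant did beyond these acids. No group got culture medium without the acids, so any other change that the bacteria made to the medium is part of this difference.

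AHR is a transcription factor that waits in the cytosol with HSP90 and co-chaperones until a small aromatic ligand binds it. It then enters the nucleus, pairs with ARNT and binds DNA at xenobiotic response elements, whose core reads GCGTG. Its target genes include the CYP1 monooxygenases, which oxidise many of its ligands, and the repressors AHRR and TIPARP, which damp the receptor. In the gut epithelium the pathway is known for its response to compounds from food and from bacteria.

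Promoter sequences were looked at because CYP1A1 and CYP1A2 lie beside each other on chromosome 15, with start sites 23.3 kb apart and in opposite orientation, and yet differed in the size of their response. RefSeq windows (GRCh38.p14, 250 bases before to 50 after each start) were found for 6 of the 8 genes; CYP1B1 and ALDH3A1 had none in the table. The bases before the start are shown for the 2 neighbours and for the first listed start of each repressor, 5′ to 3′ on the strand of the gene, with the core GCGTG, or CACGC where it lies on the other strand, in capitals. They are chr15:74725529-74725778 (minus strand) for CYP1A1, chr15:74748595-74748844 (plus) for CYP1A2, chr3:156674340-156674589 (plus) for TIPARP and chr5:321464-321713 (plus) for AHRR.
CYP1A1: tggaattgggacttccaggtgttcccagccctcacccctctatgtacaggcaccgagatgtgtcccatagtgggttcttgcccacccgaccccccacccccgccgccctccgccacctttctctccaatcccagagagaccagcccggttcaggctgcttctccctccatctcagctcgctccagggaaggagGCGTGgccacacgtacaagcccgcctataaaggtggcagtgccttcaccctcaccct
CYP1A2: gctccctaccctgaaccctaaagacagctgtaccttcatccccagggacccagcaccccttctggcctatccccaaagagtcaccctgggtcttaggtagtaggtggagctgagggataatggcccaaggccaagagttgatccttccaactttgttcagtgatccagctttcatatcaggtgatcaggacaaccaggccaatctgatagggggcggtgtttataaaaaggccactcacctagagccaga
TIPARP: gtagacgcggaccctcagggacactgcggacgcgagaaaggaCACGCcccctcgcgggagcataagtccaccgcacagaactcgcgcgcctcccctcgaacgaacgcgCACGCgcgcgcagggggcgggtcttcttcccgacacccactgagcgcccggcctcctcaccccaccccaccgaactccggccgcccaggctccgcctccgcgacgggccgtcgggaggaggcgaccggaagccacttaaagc
AHRR: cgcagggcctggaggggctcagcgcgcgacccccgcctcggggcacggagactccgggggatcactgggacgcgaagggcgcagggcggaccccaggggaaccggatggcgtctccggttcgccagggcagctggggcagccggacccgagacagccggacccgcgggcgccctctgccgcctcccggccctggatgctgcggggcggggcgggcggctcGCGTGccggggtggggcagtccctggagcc
The CYP1A1 window held 1 core, whose first base lies at -57 from the start, and the CYP1A2 window held 0. TIPARP had 2 cores, at -208 and -142, in its first window and 0 in the other 2. AHRR had 1 core at -30 in its first window and 2 in its second, and AHR had 1, at 37 bases after its start. The ARNT window held 0. A core on either strand occurs in 36.5% of all 35116 promoter windows of this length, and 2 or more in 12.7%. A match or its absence is therefore a description of the letters only. Bases outside these windows were not searched, and a link to the size of a response was not tested.

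The arrays lay on 4 slides. NT and C3/C2 shared slides 1 and 2, SN and TRAIL shared slide 3, and both co-treatments shared slide 4. Slide and treatment therefore cannot be told apart in SN against C3/C2 or in any comparison of SN, TRAIL or a co-treatment with NT, whereas C3/C2 against NT, SN against TRAIL and TRAIL+SN against TRAIL+C3/C2 were read within slides. The study describes 2 independent experiments in duplicate, which the labels do not tie to replicate numbers, so the p-values measure a spread that may be partly technical. Across groups and over all genes, the deviations of same-numbered arrays from their group means correlated (median r of 0.20). Those of replicates 1 and 2 correlated with each other, as did those of 3 and 4 (median r of 0.14 between different numbers of a set). Between the sets the median r was -0.17. The deviations within a group balance out, so this sign follows from the positive values and adds nothing to them. The 4 arrays of a group thus fell into 2 sets, while the SEs given for n = 4 count each array on its own. With the set as a block, a fit chosen after seeing the data, no call of a member changed. That fit removes only a shift common to all groups and still counts each array on its own. The shift was not common for CYP1A1, where replicates 3 and 4 differed from 1 and 2 by -0.75 in NT and 0.92 in C3/C2. The unchanged calls therefore do not show what p-values based on sets would be. Of 10 markers of colon epithelium, 9 were well above background on all arrays in every group. Of 10 markers of other cell types, 4 to 6 were, depending on the group, with group means between -7.97 and -0.32 on the log2 scale used below. Levels come from the whole culture, so fewer cells that express a gene and less RNA per cell cannot be told apart.

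With the supernatant, CYP1A1, CYP1B1 and TIPARP stood above their level with the acids, whether or not TRAIL was present. In SN against C3/C2, 3 of the 8 genes were called higher (CYP1A1, CYP1B1 and TIPARP) and 0 lower, where a call needs a difference of 2-fold or more with an adjusted p below 0.05 (limma, Benjamini-Hochberg over all 20703 genes); 1.28% of all genes were called higher. In TRAIL+SN against TRAIL+C3/C2 the same 3 genes and CYP1A2 were called higher, 4 of 8 with 0 lower, against 0.976% of all genes. The median log2 difference of the 8 genes was 0.68 and 0.82, and that of all genes was -0.05 and -0.06. The 8 genes were chosen with earlier results of these data known, so setting them beside all genes is a description and not a test. Of all calls, 22.5% were higher in the first comparison and 27.6% in the second, and other scalings of the arrays moved these shares to between 31.5% and 53.4%, and between 40.5% and 56.3%.

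**Figure D1:**
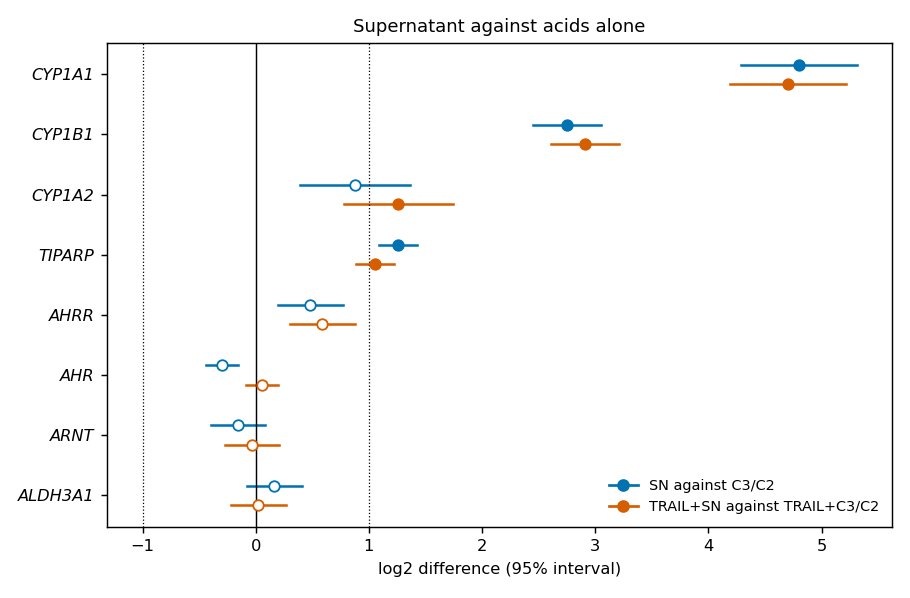
Log2 difference of each gene (x axis) between supernatant and acids alone, without TRAIL (blue) and with TRAIL (orange), with the 95% interval from limma as a line. Filled points were called, and dotted lines mark a fold of 2. CYP1A1 stands farthest right, at 4.80 and 4.71, and AHR, ARNT and ALDH3A1 lie near 0.

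CYP1A1, the classic inducible AHR target, was the most changed gene of the array between supernatant and acids. Levels are log2 intensities minus the 75th percentile of their own array, so that 0 stands for that percentile. In NT the 4 arrays gave -3.54, -3.72, -4.40 and -4.38. With C3/C2 they gave -1.32, -1.56, -0.61 and -0.43. With SN they gave 3.47, 3.57, 4.07 and 4.16. No array of any of these 3 groups reached into the range of another (as for 58.2% of all genes between C3/C2 and NT, 63.7% between SN and NT and 44.2% between SN and C3/C2), and the probe was well above background on all 24 arrays. As intensities, NT lay between 41.0 and 69.2, C3/C2 between 306 and 639, and SN between 8017 and 13803.

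The difference of SN from C3/C2 in CYP1A1 was 4.80 on the log2 scale, 27.8-fold (SE 0.25, 95% interval 4.28 to 5.31, limma adjusted p = 1.61e-11), the largest fold in either direction among 20703 genes. With TRAIL present the values were -1.81, -1.94, -1.31 and -1.30 for the acids and 3.06, 3.06, 3.15 and 3.19 for the supernatant. That difference was 4.71, 26.1-fold (SE 0.25, limma adjusted p = 2.34e-11), again the largest of all genes, and here all 8 arrays shared 1 slide. An exact permutation test of 4 arrays against 4, two-sided, gave p = 0.0286 in both comparisons, the smallest it allows. It too counts each array on its own, and 16 such tests were run.

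**Figure D2:**
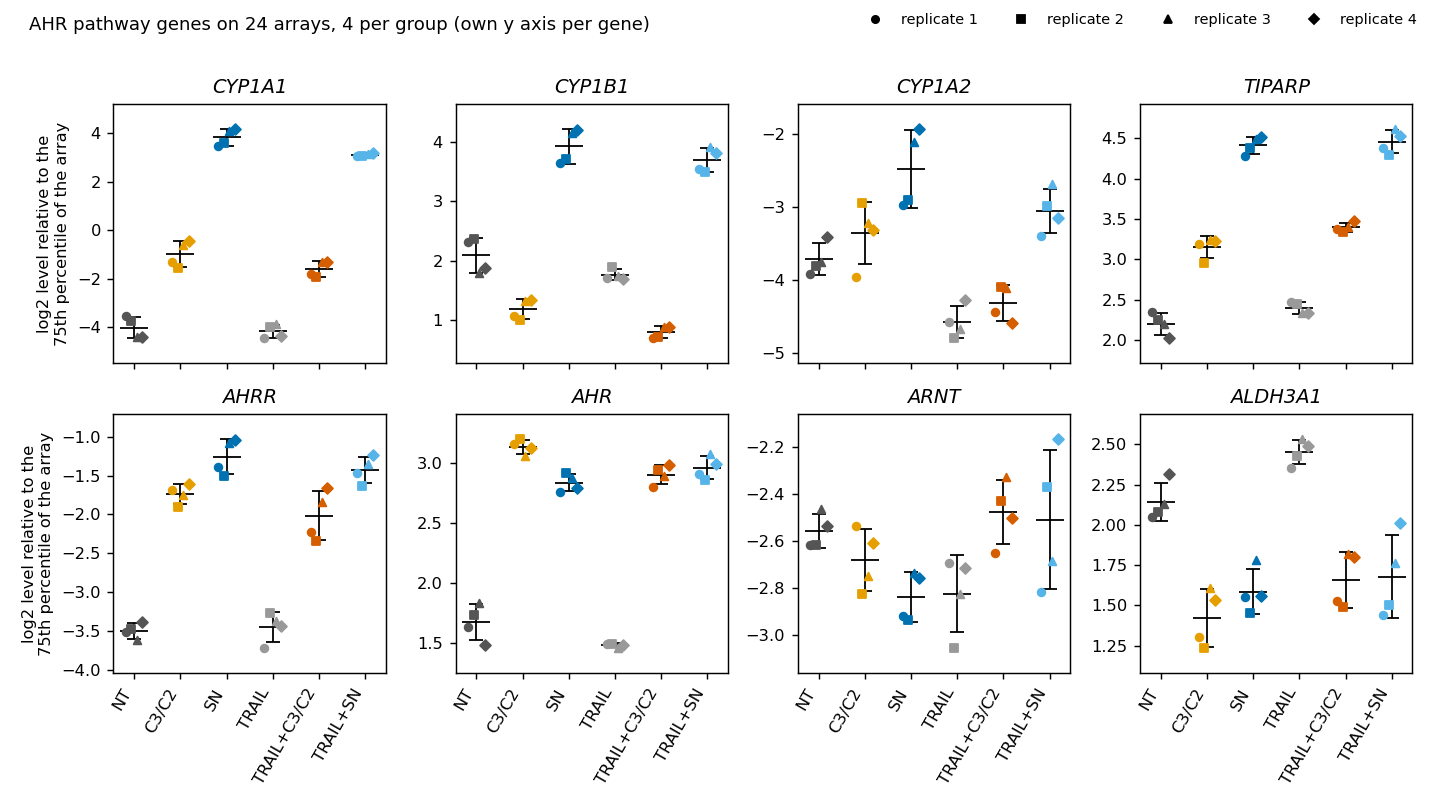
Log2 level of the 8 genes (y axis, own range for each gene) on all 24 arrays by group (x axis), 1 point per array with a symbol for its replicate number, and mean ± SD (n = 4). CYP1A1 climbs in 2 steps from NT over C3/C2 to SN, CYP1B1 lies lower with the acids and higher with the supernatant than in NT, and AHR is raised by both.

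The acids alone also raised CYP1A1. Against NT the log2 difference was 3.03 with C3/C2, 8.16-fold (SE 0.25, limma adjusted p = 6.68e-10), rank 342 among all genes ordered from the highest rise. Within slide 1 the single pair of arrays differed by 2.22, and within slide 2 the means of 3 arrays each differed by 3.30. Replicates 1 and 2 alone gave 2.19 and replicates 3 and 4 alone gave 3.86. With normexp background correction in place of the scanner's own subtraction the difference was 2.13.

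Against NT, SN raised CYP1A1 by 7.83, 227-fold (SE 0.25, limma adjusted p = 1.33e-16), rank 3 of all genes. TRAIL+SN raised it by 7.12, 139-fold, and TRAIL+C3/C2 by 2.42, 5.34-fold. With normexp these were 6.68, 5.99 and 1.69, and SN against NT was 7.15 in replicates 1 and 2 alone and 8.50 in replicates 3 and 4 alone. TRAIL alone left the level at -4.45, -3.98, -3.87 and -4.34, within the range of NT on 3 of 4 arrays, a difference of -0.15 (95% interval -0.66 to 0.36, limma adjusted p = 0.69). In order of mean level the groups were SN (3.82 ± 0.35), TRAIL+SN (3.11 ± 0.07), C3/C2 (-0.98 ± 0.54), TRAIL+C3/C2 (-1.59 ± 0.33), NT (-4.01 ± 0.44) and TRAIL (-4.16 ± 0.28; all mean ± SD, n = 4). Of the neighbours in that order, C3/C2 and TRAIL+C3/C2 overlapped, as did NT and TRAIL. SN and TRAIL+SN did not overlap, at a difference of -0.70 for TRAIL+SN (SE 0.25, limma adjusted p = 0.049, below a fold of 2 and across slides; 22.8% of all genes did not overlap).

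CYP1B1, the CYP1 enzyme that also oxidises oestradiol, lay below NT with the acids and above NT with the supernatant. NT gave 2.32, 2.37, 1.80 and 1.87. C3/C2 gave 1.06, 1.00, 1.31 and 1.33, all below NT. SN gave 3.64, 3.71, 4.15 and 4.21, all above NT. Of all genes, 58.2% did not overlap between C3/C2 and NT, and 63.7% between SN and NT. The log2 difference of C3/C2 from NT was -0.91 (SE 0.14, limma adjusted p = 1.04e-05), just short of a fold of 2; scaled to the array median it was -1.21 and to the spike-in probes -1.09, and without NT replicate 3 it was -1.01, which all pass, while replicates 1 and 2 alone gave -1.31 and replicates 3 and 4 alone -0.51. SN against NT was 1.84, 3.58-fold (SE 0.14, limma adjusted p = 2.80e-10).

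With TRAIL the same division was seen. TRAIL+C3/C2 lowered CYP1B1, with a difference of -1.30 from NT and arrays between 0.69 and 0.88 (limma adjusted p = 6.52e-08; -0.95 and not called in replicates 3 and 4 alone), and TRAIL+SN raised it by 1.61, to between 3.50 and 3.92 (limma adjusted p = 2.09e-09). Supernatant against acids was 2.75, 6.74-fold, without TRAIL (rank 16 from the highest rise) and 2.91, 7.51-fold, with TRAIL (rank 5), each with an SE of 0.14. A second probe of CYP1B1 gave 3.23 and 2.99 in these comparisons, and -0.93 and 2.30 for C3/C2 and SN against NT.

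CYP1A2, the neighbour of CYP1A1, whose product clears caffeine in the liver, changed far less. NT gave -3.91, -3.81, -3.74 and -3.40, and C3/C2 gave -3.95, -2.94, -3.21 and -3.31. SN gave -2.97, -2.89, -2.11 and -1.93, which overlaps with C3/C2 through 1 acid array at -2.94. SN against C3/C2 was 0.88 (SE 0.23, 95% interval 0.39 to 1.36, limma adjusted p = 0.00399), below a fold of 2; it was 1.05 scaled to the array median and 1.13 scaled to spike-in probes, and without SN replicate 1 it was 1.04, without SN replicate 2 1.02 and without C3/C2 replicate 2 1.01, all of which pass. Replicates 3 and 4 alone gave 1.24, which passes, while replicates 1 and 2 alone gave 0.51 (limma adjusted p = 0.21) and normexp 0.57, which do not.

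With TRAIL, CYP1A2 lay between -4.59 and -4.09 with the acids and between -3.39 and -2.67 with the supernatant. The difference was 1.26, 2.40-fold (SE 0.23, limma adjusted p = 0.00022), and these groups did not overlap (as for 34.7% of all genes). With normexp it was 0.47 and no longer called; its mean intensity in TRAIL+C3/C2 was 25.1. SN against NT was 1.24 (limma adjusted p = 7.23e-05), and 0.86 with normexp.

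TIPARP, an ADP-ribosyltransferase that AHR induces and that represses AHR in turn, climbed in steps like CYP1A1 but over a smaller range. NT gave 2.35, 2.25, 2.20 and 2.02, C3/C2 gave 3.19, 2.96, 3.24 and 3.23, and SN gave 4.28, 4.38, 4.48 and 4.51. No array of one group reached another (as for 58.2% of all genes between C3/C2 and NT, 63.7% between SN and NT and 44.2% between SN and C3/C2). SN against C3/C2 was 1.26, 2.39-fold (SE 0.08, limma adjusted p = 3.47e-10), and with TRAIL it was 1.06, 2.08-fold (SE 0.08, limma adjusted p = 4.53e-09), which replicates 1 and 2 alone put at 0.98, below a fold of 2. SN raised TIPARP by 2.21 against NT (limma adjusted p = 1.61e-15), and C3/C2 gave 0.95 against NT, a fold of 1.93 (limma adjusted p = 1.57e-09), which without C3/C2 replicate 2 was 1.01 on the log2 scale and passed. A second TIPARP probe, for another transcript, was well above background on 9 of 24 arrays and failed the filter.

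AHRR, the repressor that competes with AHR for ARNT, was raised by acids and supernatant by more similar amounts. NT gave -3.52, -3.47, -3.62 and -3.38. C3/C2 gave -1.69, -1.90, -1.75 and -1.61, and SN gave -1.39, -1.51, -1.08 and -1.05. Against NT these were 1.76, 3.38-fold, and 2.24, 4.72-fold (SE 0.14 for both, limma adjusted p = 3.88e-10 and 6.42e-12), and with normexp 1.19 and 1.58. SN against C3/C2 was 0.48 (95% interval 0.19 to 0.77, limma adjusted p = 0.00702) and with TRAIL 0.59 (95% interval 0.30 to 0.88, limma adjusted p = 0.00206). Both were short of a fold of 2, although the arrays did not overlap, as was so for 44.2% and 34.7% of all genes.

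AHR itself, the receptor, was raised both by the acids and by the supernatant. NT gave 1.64, 1.74, 1.83 and 1.49, C3/C2 gave 3.16, 3.20, 3.06 and 3.12, and SN gave 2.76, 2.91, 2.88 and 2.79. Against NT, C3/C2 was 1.46, 2.75-fold (SE 0.07, limma adjusted p = 6.46e-14), and SN was 1.16, 2.23-fold (SE 0.07, limma adjusted p = 2.06e-12). A second probe gave 1.63 and 1.59. SN against C3/C2 was -0.30 by the first probe (limma adjusted p = 0.000986). Other settings put this gene between -0.37 and -0.05, with a limma adjusted p of up to 0.79. By the second probe SN against C3/C2 was -0.04 (95% interval -0.20 to 0.11), and with TRAIL the probes gave 0.06 and -0.06. TRAIL+C3/C2 and TRAIL+SN raised AHR against NT by 1.23 and 1.28, which spike-in scaling lowered to 0.51 and 0.76, below a fold of 2. In the main scaling the second probe gave 1.79 and 1.73 for these comparisons.

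ARNT, the partner of AHR, was called in none of the 11 comparisons. Its group means lay between -2.84 in SN and -2.48 in TRAIL+C3/C2, with an SD of 0.07 to 0.29. SN against C3/C2 was -0.16 (95% interval -0.40 to 0.08) and with TRAIL -0.03 (95% interval -0.27 to 0.21), and the sign of both turned when arrays were scaled to their median or to spike-in probes.

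ALDH3A1, an aldehyde dehydrogenase that AHR induces in other cells, was lower with the acids and with the supernatant and was not called against NT by the probe that stands for the gene. NT gave 2.05, 2.08, 2.13 and 2.31, C3/C2 gave 1.30, 1.23, 1.61 and 1.53, and SN gave 1.55, 1.45, 1.78 and 1.56. Both treated groups lay wholly below NT, and 58.2% and 63.7% of all genes did not overlap between these groups and NT. The differences from NT were -0.72 and -0.56 (SE 0.12, limma adjusted p = 1.47e-05 and 0.000245), short of a fold of 2. Scaled to the array median, the first was -1.02 and passed. A second probe gave -0.82 and -0.81, and with TRAIL+SN it was called lower, at -1.02. SN against C3/C2 was 0.16 (95% interval -0.08 to 0.41).

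Against NT, more of the 8 genes were called with SN than with C3/C2, and many genes of the array were called in both. With C3/C2, CYP1A1, AHRR and AHR were called higher, 3 of 8 against 13.4% of all genes. With SN, 6 of 8 were (all but ARNT and ALDH3A1), against 14.2%. TRAIL+C3/C2 called 4 higher (CYP1A1, AHRR, TIPARP and AHR; 16.2% of all genes) and CYP1B1 lower (7.94%), and TRAIL+SN called 5 higher (CYP1A1, CYP1B1, AHRR, TIPARP and AHR; 16.1%). These comparisons share the NT arrays. Of all calls, 68.5% were higher with C3/C2, 61.3% with TRAIL+SN and 67.2% with TRAIL+C3/C2, and other scalings put these shares at 46% to 61.1%, 27.4% to 54.3% and 21% to 56.1%. With SN the share was 59.4%, and 50.2% to 64.1% with other scalings. Scaled to the array median, CYP1B1 and ALDH3A1 were also called with C3/C2, both lower. Scaled to the array median, TIPARP and AHR with TRAIL+C3/C2 were 0.85 and 0.88 and no longer called, leaving 2 higher and 1 lower. Scaled to spike-in probes the split of TRAIL+C3/C2 turned round, to 1 higher (CYP1A1) and 3 lower, with CYP1B1 at -2.01, CYP1A2 at -1.31 and ALDH3A1 at -1.20, while AHRR at 0.76, TIPARP at 0.48 and AHR at 0.51 were no longer called.

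**Figure D3:**
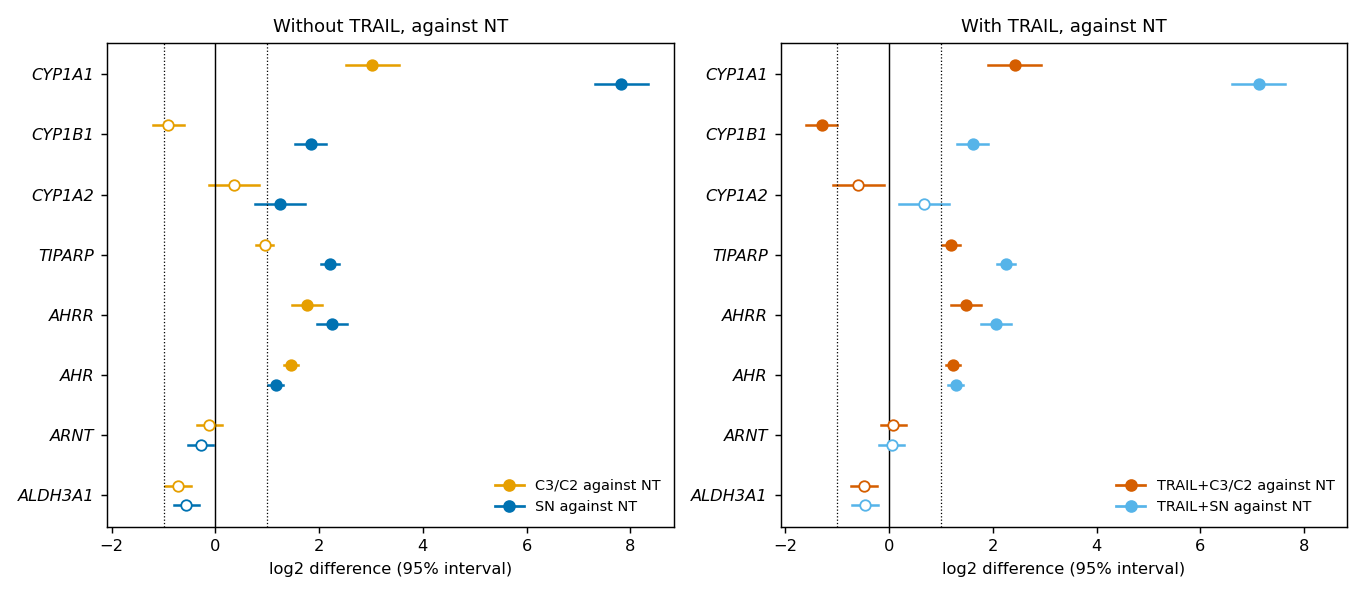
Log2 difference from NT of each gene (x axis) with acids and with supernatant, without TRAIL (left) and with TRAIL (right), with the 95% interval from limma. Filled points were called, and dotted lines mark a fold of 2 either way. CYP1B1 lies on opposite sides of 0 with acids (-0.91 and -1.30) and supernatant (1.84 and 1.61).

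With TRAIL alone, 0 of 8 genes were called against NT by limma, where 2.93% of all genes were called either way (25.5% of them higher, and 9.35% to 34.8% with other scalings). At an unadjusted p under 0.05, 6 of the 8 genes differed (42.6% of all genes), and 3 did after adjustment (33.5% of all genes), all by less than a fold of 2. CYP1A2 was at -0.86 (limma adjusted p = 0.00712), ALDH3A1 at 0.31 (limma adjusted p = 0.0474) and AHR at -0.19 (limma adjusted p = 0.0334). The second probes of ALDH3A1 and AHR did not share these shifts, at 0.03 (limma adjusted p = 0.90) and 0.07 (limma adjusted p = 0.50). Spike-in scaling put CYP1A2 at -1.13, past the threshold. SN against TRAIL, both on slide 3, called 6 of 8 higher (13.1% of all genes; of all calls 62.1% were higher, and 45% to 82.8% with other scalings), and CYP1A1 differed by 7.98 there, 252-fold (SE 0.25, limma adjusted p = 1.11e-16).

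Whether TRAIL altered the response to acids or supernatant was tested by 3 interaction contrasts, and limma called 0 of 8 genes in any of them; at an unadjusted p under 0.05, 1, 2 and 1 genes differed, beside 15.6%, 35.2% and 26.5% of all genes. The background was 0.657% of all genes for TRAIL by C3/C2, 3.1% for TRAIL by SN and 2.62% for the change with TRAIL in supernatant against acids. For CYP1A1 the last was -0.09 (95% interval -0.82 to 0.63, limma adjusted p = 0.91); the interval leaves out a fold of 2 either way. TRAIL by C3/C2 and TRAIL by SN gave -0.46 and -0.55 for CYP1A1 (SE 0.35, limma adjusted p = 0.58 and 0.27). In replicates 3 and 4 alone they were -1.07 and -1.23 and were called, and in replicates 1 and 2 alone they were 0.14 and 0.12.

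Other genes of the pathway were read from wider lists. Of 11 partners, chaperones and coregulators of AHR, 10 were tested and 0 were called by limma in SN against C3/C2 or in TRAIL+SN against TRAIL+C3/C2, with a median log2 difference of -0.05 and -0.08. Over all genes, 5.69% and 3.53% were called in these comparisons. Against NT, 3 of the 10 were called lower with C3/C2, and 5 lower and 1 higher with SN. Of all genes, 6.18% and 9.75% were called lower, and 14.2% were called higher with SN. The list had a median of -0.56 and -0.68 beside 0.08 and -0.02 for all genes. The list members named next are only from those called lower, picked after their values were seen. The largest fall with SN was that of PTGES3, the HSP90 co-chaperone p23, at -1.61. It was also called lower in TRAIL against NT, at -1.32, was -0.65 with C3/C2, and differed by -0.96 in SN against C3/C2 (SE 0.11, limma adjusted p = 3.05e-07), just short of a fold of 2. Called lower with both C3/C2 and SN were the coactivator NCOA2, at -1.22 and -1.11, the coactivator CREBBP, at -1.05 and -1.24, and the corepressor NRIP1, at -1.12 and -1.41. Of 13 other AHR targets, 8 were tested and 2, SLC7A5 and EREG, were called higher in both supernatant comparisons. Over all genes, 1.28% and 0.976% were called higher there, and the median of the list was 0.07 and -0.02. SLC7A5, a transporter of tryptophan and other large amino acids, differed by 1.19 without TRAIL and 1.06 with TRAIL (SE 0.08, limma adjusted p = 6.87e-10 and 3.93e-09). EREG, the growth factor epiregulin, differed by 1.71 and 1.44 (SE 0.11, limma adjusted p = 3.47e-10 and 4.31e-09), and C3/C2 left it at -0.13 against NT. NQO1, a quinone reductase and shared target of AHR and NRF2, was at -0.06 in both (SE 0.13). Of 10 enzymes of tryptophan breakdown, 6 were tested and 0 were called by limma in either, with a median of -0.28 and -0.34 beside -0.05 and -0.06 for all genes.

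The 5 genes whose pattern over the 24 arrays was most like that of CYP1A1 were DISP1 (Pearson r = 0.98), TIPARP (0.98), SLC7A5 (0.97), FUT1 (0.97) and ULBP1 (0.97), out of 1509 named genes whose group means span at least 2. The arrays share groups and slides, so r is a description of 6 group levels. Among the other members r was 0.90 for AHRR, 0.79 for CYP1A2, 0.76 for CYP1B1, 0.72 for AHR, -0.04 for ARNT and -0.61 for ALDH3A1. ULBP1, a ligand of the immune receptor NKG2D, had the widest range of these 5, with 2.23 for C3/C2 and 4.35 for SN against NT. DISP1, which releases lipid-bound Hedgehog proteins, gave 0.96 and 2.02, and FUT1, a fucosyltransferase of blood-group antigens, gave 0.90 and 1.98.

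**Figure D4:**
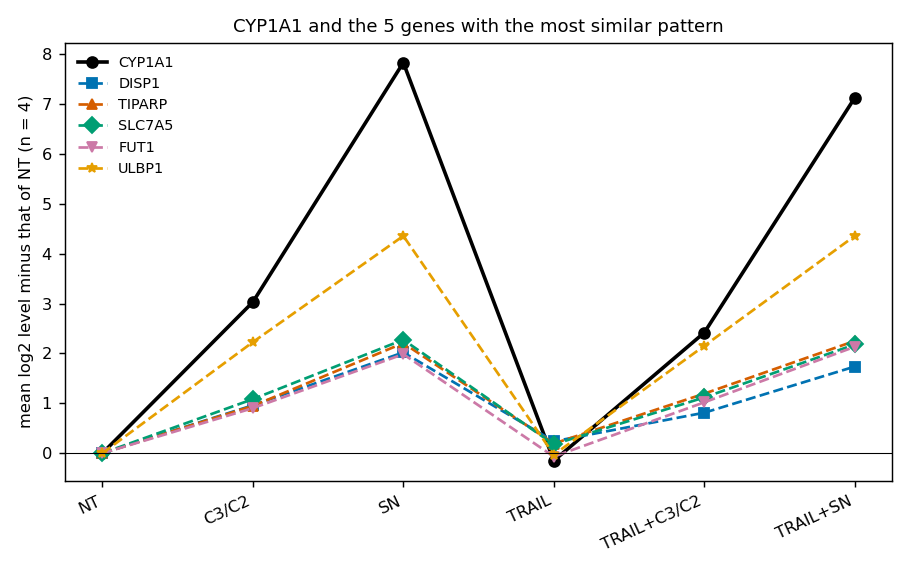
Mean log2 level minus that of NT (y axis, n = 4 arrays per group) for CYP1A1 and the 5 genes most like it, by group (x axis); lines only join the points of a gene. Each gene is higher with the acids than in NT and higher again with the supernatant, and CYP1A1 spans the widest range, up to 7.83.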

How the data were processed

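RNA of HT29 cells was labelled with Cy3 and hybridised to Agilent 60-mer arrays, 1 colour, 4 arrays for each of 6 groups. Per the file headers, Agilent Feature Extraction 10.7.3.1 gave the intensities that the authors deposited, with background subtracted and no normalization between arrays. A deposited table of the authors' intensities holds the same values divided by the median of their array (largest relative departure 8.52e-06); its 24 flag columns were not used. Groups and replicate numbers were taken from the sample labels.

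Outlier spots were dropped, each probe was averaged over its spots as log2 intensity, and each array was centred on its 75th percentile. A probe was kept if 1 group or more had it well above background on all 4 arrays, and a gene was read from its probe with the highest mean level. The 6 groups entered 1 fit by limma (version 3.58.1, with R 4.3.3 and statmod 1.5.0) over all 24 arrays (18 residual degrees of freedom), with Benjamini-Hochberg adjustment over 20703 genes and calls at a fold of 2 and adjusted p under 0.05, in 11 comparisons. The contrasts TRAIL+SN against SN and TRAIL+C3/C2 against C3/C2 came from the same fit and were added after seeing the data. The steps were tested on simulated data.

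The members and the gene lists were chosen with earlier results of these data known. Named genes are all members with all probes, genes of the wider lists called between supernatant and acids (NQO1, PTGES3, NCOA2, CREBBP and NRIP1 were named after their values were seen), and the 5 genes most like CYP1A1. Arrays carry no counts, so their number limits the precision: the median SE of a log2 difference was 0.11. The alternatives were other scalings (array median, quantile, 7 spike-in probes), normexp with an offset of 50, the authors' table, other filters, probe averaging, other fits, slide or replicate number as a block, and each array left out. Same-numbered samples of different groups deviated together, with r between 0.06 and 0.47 (median 0.20). The labels do not call the numbers pairs, so the main fit did not pair them. The replicate number entered as a block only among the alternatives. Promoters are RefSeq windows on GRCh38.p14, searched for GCGTG on both strands. Figures were drawn with matplotlib.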

Additional observations from a re-analysis of the deposited data

Results flagged for a closer look

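In 3 tests of an interaction the difference between contrasts passed an adjusted p of 0.05 (limma, Benjamini-Hochberg over all genes) without reaching a fold of 2. These were 2 of 8 members for TRAIL by SN and 1 of 8 for the change with TRAIL in supernatant against acids, where 23.2% and 13.6% of all genes passed the same rule. For AHR, supernatant against acids differed by 0.354 on the log2 scale between cells with and without TRAIL (SE 0.09, limma adjusted p = 0.015), and the TRAIL by SN interaction was 0.312 (SE 0.09, limma adjusted p = 0.021). The second AHR probe gave -0.02 and 0.07 for the same contrasts. For ARNT the TRAIL by SN interaction was 0.592 (SE 0.16, limma adjusted p = 0.012), from means of -2.82 with TRAIL, -2.84 with SN and -2.51 with TRAIL+SN against -2.56 in NT. Each of these contrasts crosses slides, so slide and treatment cannot be told apart. In 66 tests for a lone array within a group of 4, 0 members stood apart.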

How the results depend on the processing

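Over all comparisons and changes of setting, 297 counts of called members were recomputed, and 285 stayed within 1.5 times the value given above. Of 2336 recomputed differences of single members, 14 lost their call, 44 gained one and 0 reversed a call. Another 75 turned sign without being called. The deposited table repeats the array-median scaling, so these totals count that setting more than once. In SN against C3/C2 the differences of CYP1A1, CYP1B1 and TIPARP kept their calls in every setting run, between 4.55 and 5.05, 2.65 and 3.00, and 1.19 and 1.51. Without a minimum fold, 6 members passed in SN against C3/C2 (47.4% of all genes), 6 in C3/C2 against NT (63%), 3 in TRAIL against NT (33.5%), 2 in the TRAIL by SN interaction (23.2%) and 1 in the change of supernatant against acids with TRAIL (13.6%). With the array median as the scale, and likewise with the deposited table, 5 members were called in C3/C2 against NT and 3 in TRAIL+C3/C2 against NT; with spike-in probes, 1 was called in TRAIL against NT. Replicates 3 and 4 alone gave 1 call (CYP1A1) in each of the TRAIL by C3/C2 and TRAIL by SN interactions; this split was chosen after seeing the data, and the cause was not tested. Scaling moved the median of all genes, by -0.72 in TRAIL+C3/C2 against NT and 0.25 in SN against C3/C2 with spike-in probes, and by -0.30 in C3/C2 against NT with the array median. With each array left out in turn, 3 to 4 members were called in SN against C3/C2 and in C3/C2 against NT, and the other counts did not move.

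The share of all genes called in SN against C3/C2 and in TRAIL+SN against TRAIL+C3/C2 was 5.69% and 3.53%, but 2.08% and 0.744% with normexp, 3.61% and 1.82% where probes had to be well above background on all 24 arrays, and 47.4% and 37.6% without a minimum fold. With the replicate number as a block, 3 and 4 members were called in these comparisons and no call of a member changed; 5.74% and 3.59% of all genes were called. Not every same-numbered pair had a correlation over 0.1, although 21 of 24 arrays were closest to their own number.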
